A study of Mus musculus with 8 samples.

Results

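The 10 genes described here belong to the transforming growth factor beta (TGF-beta) system and were followed across the cell classes of the mouse cortex after photothrombosis (PT), a model of ischemic stroke. They were chosen by symbol, namely the 3 ligands Tgfb1, Tgfb2 and Tgfb3, the 3 receptors Tgfbr1, Tgfbr2 and Tgfbr3, and the 4 latent TGF-beta binding proteins Ltbp1, Ltbp2, Ltbp3 and Ltbp4, and all 10 are among the 21848 genes of the matrices. The data are single-cell RNA counts of the right sensorimotor cortex, taken 6 days after PT from the lesion with a rim of spared cortex, with the meninges and the corpus callosum left out and without enrichment for a cell type. In all, 4 adult control mice received saline and 4 adult ancrod mice received 2.4 U per day of ancrod, a snake venom enzyme that depletes fibrinogen, from minipumps implanted 2 days before PT. All 8 mice carried the lesion, the labels give all as female and of the genotype "Bl/J6", and no transgene is named. The design text names the strain as C57Bl/6J, while the methods name C57BL/6N and both sexes, which was not settled. Each mouse gave 1 library, and mice 1 to 3 of each group belonged to batch 1 and mouse 4 of each group to batch 2, for injury and for sequencing.

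TGF-beta is made as a precursor whose cut propeptide stays wrapped around the growth factor and keeps it latent. Latent binding proteins tie this complex to the extracellular matrix, from which integrins and proteases release the active ligand. The ligand binds the type II receptor, encoded by Tgfbr2, which recruits and phosphorylates the type I receptor, encoded by Tgfbr1, and the signal passes through Smad2 and Smad3. Betaglycan, encoded by Tgfbr3, is a co-receptor that presents the ligand, above all the product of Tgfb2. In the brain the pathway is known for keeping microglia in their resting identity, for the stability of vessels and for the deposition of scar matrix by fibroblasts.

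Droplets with at least 2000 UMIs and less than 20% mitochondrial UMIs were kept, which gave 46216 droplets, and 44072 cells after the removal of 2144 droplets scored as doublets. Total UMIs per library, over all droplets, were 97861434 to 122758649 in control and 126682918 to 142139441 in ancrod mice, without overlap. The median UMIs per kept cell did overlap, at 10566 to 14229 in control and 13648 to 17527 in ancrod mice. A pair of libraries shared 3 to 14 cell barcodes. Cells fell into 51 clusters, and those with enough fixed markers were named by class with the ending "-like", since no cell annotation by the authors was used. There were 17 named classes, 14 of which had enough cells in both groups to be tested, and 12.4% of the cells stayed unnamed. Neuron-like, ependymal cell-like and erythrocyte-like cells were too few. Levels are given as CPM, the UMIs of a gene per 1e+06 UMIs of all genes in that class and mouse, as mean ± SD over mice, and only levels of the same gene are compared. Free RNA from broken cells made up an estimated 1.46% to 2.73% of the UMIs of microglia-like and endothelial cell-like cells. The same share was taken for every other class, where it was not measured and may be higher or lower. At that share, a class that lacks the gene would have at most 6.49 CPM of Tgfbr1, 4.75 CPM of Tgfbr2 and 4.30 CPM of Tgfb1. Each other gene would have at most 1.39 CPM.

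**Figure D1:**
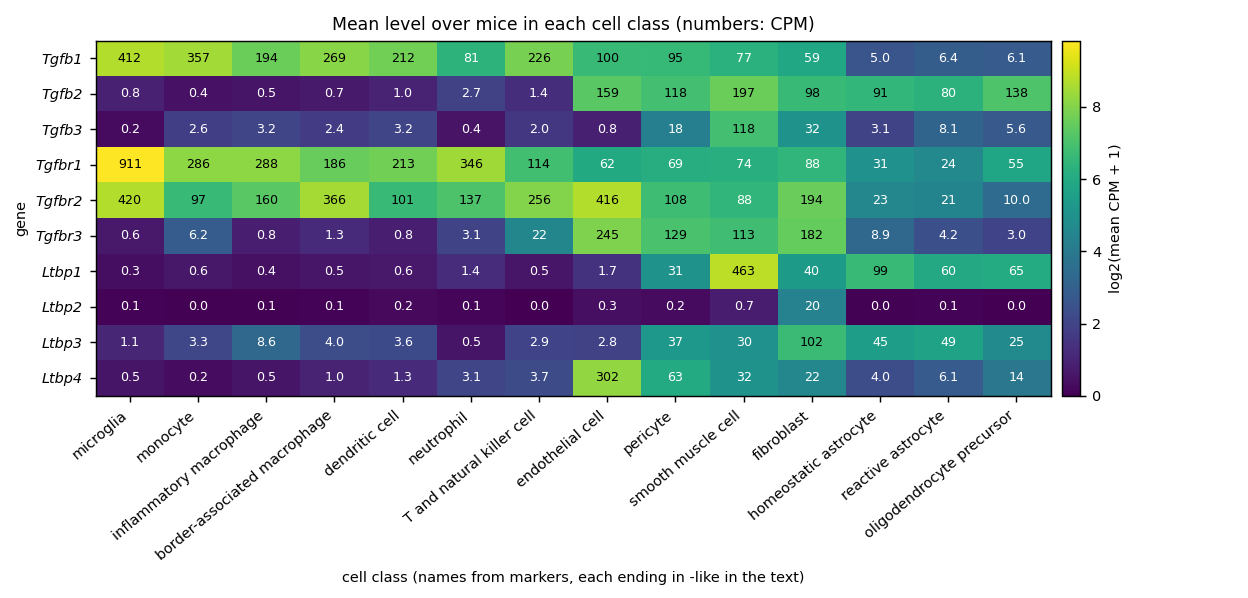
Mean level of each of the 10 genes, in CPM over mice, in each of the 14 tested cell classes. The highest mean is in microglia-like cells for Tgfb1, Tgfbr1 and Tgfbr2, in smooth muscle cell-like cells for Tgfb2, Tgfb3 and Ltbp1, in fibroblast-like cells for Ltbp2 and Ltbp3, and in endothelial cell-like cells for Tgfbr3 and Ltbp4, though for Tgfb2 and Tgfbr2 it did not differ from that of endothelial cell-like cells beyond the spread.

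The system was divided between cell types. Microglia-like cells had the highest mean level of the ligand Tgfb1 and of both signalling receptors, Tgfbr1 and Tgfbr2 (for the latter not told apart from endothelial cell-like cells), whereas the other 2 ligands and every latent binding protein peaked in cells of the vessel wall and in fibroblast-like cells. The highest class was set against the second highest within each mouse on log2(CPM + 1), with a two-sided exact sign-flip test over the 8 mice. Its smallest possible p is 0.007812, and adjustment was made over the 10 genes. For 8 of 10 genes the highest class stood above the second. The direction of this difference is fixed by the choice of the classes by their mean over the same mice. With all 8 mice in that direction the test gives its smallest p whatever the size of the difference. It thus bears on the agreement between mice, not on the size. In this text a difference beyond the spread is one that passed after adjustment. Over all 130 pairs of neighbouring classes in the 10 orders, 22 differed after adjustment over the pairs. Each of them had the smallest possible p, an adjusted exact p of 0.0462 and the same direction in 8 of 8 mice. Pairs with oligodendrocyte precursor-like cells had 7 mice. Their smallest exact p, 0.0156, gave an adjusted exact p of 0.0677, so no such pair could pass.

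Tgfb1 (chromosome 7, 25386390 to 25404506, plus strand, in GRCm39, as for all positions below) encodes the ligand of immune and inflammatory cells. In microglia-like cells it was at 419, 437, 426 and 360.3 CPM in control mice 1 to 4 and at 399, 435, 402 and 419 CPM in ancrod mice 1 to 4. In monocyte-like cells the values were 346, 404, 388 and 349.7 CPM in control and 356, 318, 338 and 354 CPM in ancrod mice. The lead of microglia-like cells was thus small but held in every mouse. It was 0.21 ± 0.12 (SD, n = 8 mice) on the log2 scale, with an adjusted exact p of 0.0112. Below them followed border-associated macrophage-like cells at 269 ± 19.5 CPM (n = 8), which also differed from the monocyte-like cells, and T and natural killer cell-like, dendritic cell-like and inflammatory macrophage-like cells at 226 ± 28.0, 212 ± 25.0 and 194 ± 7.08 CPM, between which no neighbours differed beyond their spread. These 6 immune classes had the highest means. The next step down was from inflammatory macrophage-like to endothelial cell-like cells at 99.9 ± 16.2 CPM, a difference of 0.97 ± 0.26 on the log2 scale in 8 of 8 mice. Homeostatic astrocyte-like, reactive astrocyte-like and oligodendrocyte precursor-like cells had 5.03, 6.39 and 6.11 CPM, a level near the one that free RNA would give.

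Tgfb2 (chromosome 1, 186354985 to 186438294, minus strand) had another distribution. It was spread over vessels, fibroblasts and glia and was low in blood-borne and resident immune cells. Smooth muscle cell-like cells, the contractile cells of arterioles, had 188, 169, 174 and 159.7 CPM in control and 253, 172, 188 and 277 CPM in ancrod mice. Endothelial cell-like cells had 153, 129, 169.9 and 221 CPM in control and 87.3, 119, 173 and 219 CPM in ancrod mice. These classes did not differ beyond their spread, with a difference of 0.34 ± 0.57 on the log2 scale, 7 of 8 mice in one direction and an adjusted exact p of 0.121. Without control mouse 4 the adjusted exact p was 0.0195. Next came oligodendrocyte precursor-like cells at 138 ± 65.4 CPM (n = 7), pericyte-like cells at 118 ± 25.2 CPM and fibroblast-like cells at 98.4 ± 67.0 CPM. Homeostatic and reactive astrocyte-like cells followed at 91.1 ± 9.10 and 79.8 ± 14.2 CPM. No neighbours among these classes passed the threshold, which pairs with the 7 mice of the oligodendrocyte precursor-like cells could not reach. The fibroblast-like value of 258 CPM in control mouse 3 came from 19 cells, and the other 7 mice had 57.0 to 113 CPM. The 1 step in the order lay between reactive astrocyte-like cells and neutrophil-like cells at 2.74 CPM, and no other immune class had a higher mean than this. Microglia-like cells, with 0.845 ± 0.264 CPM, held 248 UMIs of Tgfb2 against 124768 UMIs of Tgfb1.

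Tgfb3 (chromosome 12, 86102756 to 86126301, minus strand) was low outside mural cells and fibroblasts. Smooth muscle cell-like cells had 102, 69.7, 99.2 and 146 CPM in control and 186, 82.7, 86.1 and 172 CPM in ancrod mice, from 352 UMIs in all. Fibroblast-like cells had 23.3, 18.8, 41.1 and 35.5 CPM in control and 28.6, 35.3, 27.9 and 49.1 CPM in ancrod mice. Every mouse was higher in the smooth muscle cell-like cells, by 1.80 ± 0.47 on the log2 scale, with an adjusted exact p of 0.0112. Pericyte-like cells followed at 17.9 ± 6.66 CPM, above reactive astrocyte-like cells at 8.08 ± 1.77 CPM in 8 of 8 mice. Endothelial cell-like and microglia-like cells had 0.830 ± 0.416 and 0.220 ± 0.134 CPM.

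**Figure D2:**
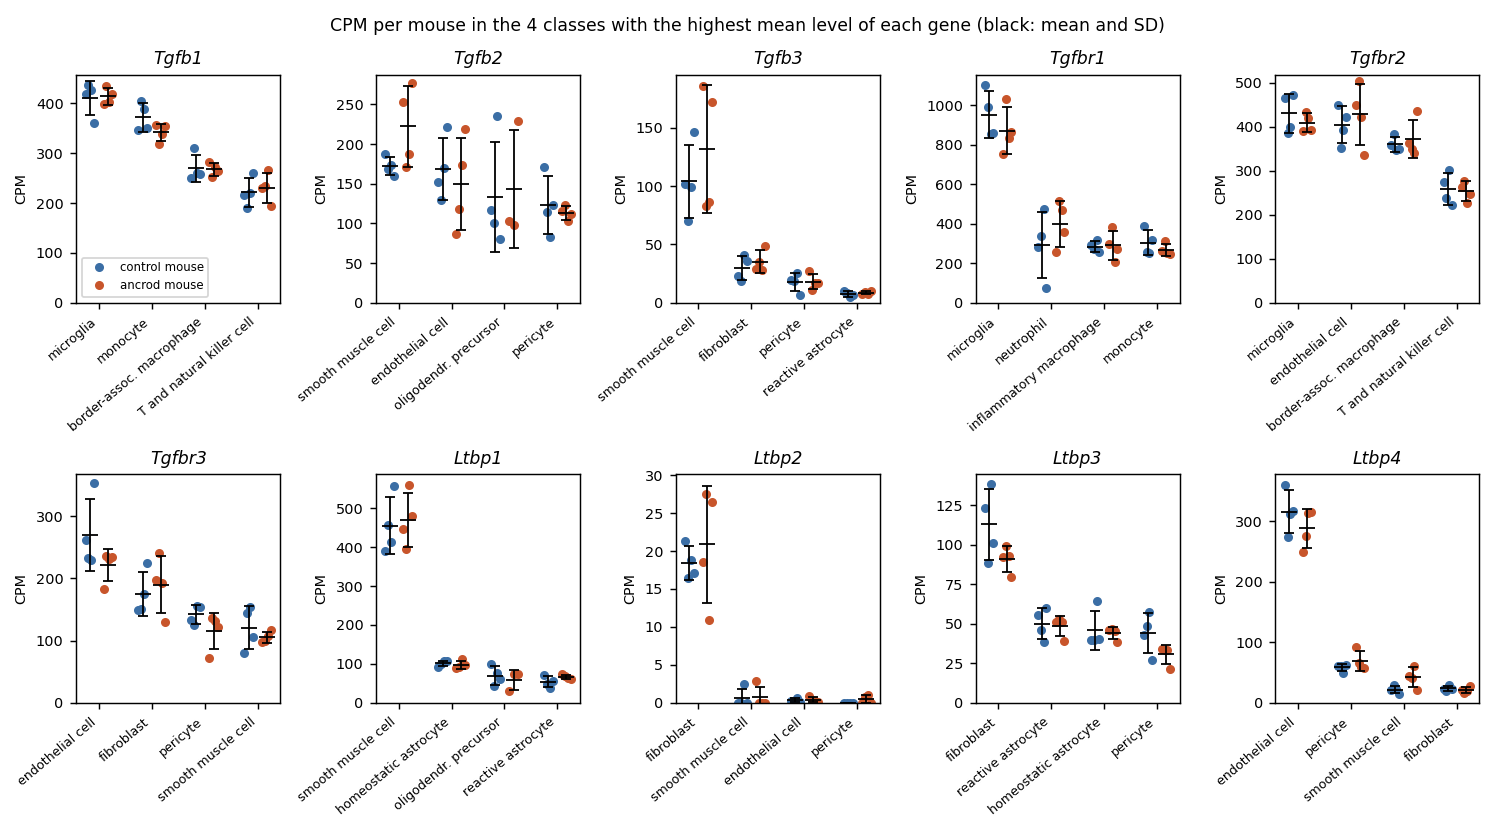
Level of each gene in CPM in every mouse, for its 4 highest classes, with control and ancrod mice marked apart and the mean as a line. The values of microglia-like cells for Tgfbr1 lie at 752 CPM or above, while those of the next class for that gene end at 514 CPM, and the control and ancrod mice overlap for each gene in its highest class.

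Tgfbr1 (chromosome 4, 47353134 to 47414931, plus strand), the type I receptor that carries the kinase acting on the Smad proteins, was highest in microglia-like cells, at 1103, 990.3, 855 and 858 CPM in control and 752, 1033, 835 and 866 CPM in ancrod mice. Neutrophil-like cells, the second class, had 281, 339, 475 and 73.9 CPM in control and 259, 514, 470.2 and 357 CPM in ancrod mice. The ranges did not meet, and the difference was 1.57 ± 0.88 on the log2 scale (adjusted exact p of 0.0112). Neutrophil-like cells were few, with 10 in control mouse 1, 27 in ancrod mouse 4 and 36 in control mouse 4, whose value was lowest. Inflammatory macrophage-like cells at 288 ± 50.5 CPM and monocyte-like cells at 286 ± 49.8 CPM followed. Neutrophil-like did not differ from inflammatory macrophage-like cells beyond their spread, nor these from monocyte-like cells. Outside the immune classes the level was 87.8 ± 15.4 CPM in fibroblast-like cells and 62.5 ± 5.76 CPM in endothelial cell-like cells, down to 30.7 ± 5.95 and 23.6 ± 9.28 CPM in homeostatic and reactive astrocyte-like cells.

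Tgfbr2 (chromosome 9, 115913361 to 116004800, minus strand), the type II receptor that binds the ligand, was highest in microglia-like and endothelial cell-like cells. Microglia-like cells had 466, 385, 399.5 and 472 CPM in control and 391, 434, 419.5 and 393 CPM in ancrod mice. Endothelial cell-like cells had 449.9, 352, 392 and 423 CPM in control and 449.2, 504, 422 and 336 CPM in ancrod mice. These 2 classes could not be ranked, with a difference of 0.02 ± 0.16 on the log2 scale, 5 of 8 mice higher in microglia-like cells and an unadjusted exact p of 0.719. Border-associated macrophage-like cells at 366 ± 30.9 CPM did not differ from endothelial cell-like cells either. They stood above T and natural killer cell-like cells at 256 ± 27.9 CPM by 0.51 ± 0.20 on the log2 scale in 8 of 8 mice. Fibroblast-like cells had 194 ± 36.8 CPM and inflammatory macrophage-like cells 160.0 ± 21.8 CPM. Astrocytes were again low, with 22.6 ± 4.55 CPM in homeostatic and 20.8 ± 3.27 CPM in reactive astrocyte-like cells, and smooth muscle cell-like cells at 87.6 ± 20.5 CPM stood above the homeostatic ones by 1.89 ± 0.45 on the log2 scale.

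Tgfbr3 (chromosome 5, 107249402 to 107437623, minus strand), the co-receptor betaglycan, was highest in cells of the vessel wall and in fibroblast-like cells. Unlike both signalling receptors, it was low in microglia-like cells. Endothelial cell-like cells had 262, 233, 230.2 and 353 CPM in control and 183, 236, 232 and 234 CPM in ancrod mice, and fibroblast-like cells had 149, 150.1, 175 and 225 CPM in control and 197, 241, 193 and 129.5 CPM in ancrod mice. Endothelial cell-like cells were higher in 6 of 8 mice, by 0.43 ± 0.36 on the log2 scale, with an adjusted exact p of 0.0391. This call was lost without control mouse 1, 2, 3 or 4 and without ancrod mouse 3 or 4, with adjusted exact p values from 0.0694 to 0.0781, and also after adjustment over the 130 neighbouring pairs. Fibroblast-like cells stood above pericyte-like cells at 129 ± 25.9 CPM by 0.50 ± 0.45 in 8 of 8 mice, and smooth muscle cell-like cells had 113 ± 24.7 CPM. Below them came a step of 2.39 ± 0.58 on the log2 scale, down to T and natural killer cell-like cells at 21.7 ± 8.83 CPM. Microglia-like cells, with high levels of both signalling receptors, had 0.604 ± 0.217 CPM of Tgfbr3, within the range that free RNA would give.

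Both signalling receptors act together, and cells with a UMI of each were counted. This share was 95.4% ± 1.22 in microglia-like cells, 90.8% ± 3.36 in inflammatory macrophage-like cells, 77.5% ± 5.00 in fibroblast-like cells and 58.4% ± 5.91 in monocyte-like cells, with border-associated macrophage-like cells between them at 63.0% ± 7.35 (SD, n = 8 mice). In endothelial cell-like and in T and natural killer cell-like cells a UMI of Tgfbr2 without one of Tgfbr1 was at least as frequent as both, at 47.0% against 44.2% and at 51.2% against 29.99%. The same held for pericyte-like cells, at 31.4% for Tgfbr2 alone against 13.9% ± 4.23 for both, and for smooth muscle cell-like cells, at 32.7% against 19.8% ± 4.802. In homeostatic astrocyte-like cells each receptor alone, Tgfbr1 in 19.7% and Tgfbr2 in 16.1% of cells, was more frequent than both, in 8.85% ± 3.80. Tgfbr1 alone was more frequent than Tgfbr2 alone in oligodendrocyte precursor-like (41.3% against 3.40%), monocyte-like (24.2% against 10.1%), dendritic cell-like (22.0% against 12.8%) and neutrophil-like cells (28.9% against 19.4%). In oligodendrocyte precursor-like cells free RNA alone, at the share taken for every class, would give a UMI of Tgfbr2 in at most 6.38% at the median depth. The 3.40% lie within that level. The next values use the median depth of each class and the same share, which was not measured in these classes. Free RNA alone would give a UMI of both in at most 4.39% of fibroblast-like, 2.18% of inflammatory macrophage-like and 0.558% of homeostatic astrocyte-like cells. It would give one of Tgfbr1 in at most 24.0%, 17.0% and 8.68%. These shares move with depth, since fibroblast-like cells had a median of 42401 UMIs per cell and pericyte-like cells one of 5526. After each cell was thinned to 2000 UMIs, a UMI of Tgfbr1 was found in 73.4% of microglia-like cells (98.4% before), 13.2% of fibroblast-like cells (78.9% before), 11.2% of pericyte-like cells (27.1% before) and 3.45% of reactive astrocyte-like cells (31.0% before). A UMI of Tgfbr2 remained in 55.5%, 31.6%, 20.3% and 5.28% of the same classes. Monocyte-like and border-associated macrophage-like cells, ranked below fibroblast-like cells before, had 34.2% and 21.3% for Tgfbr1 after thinning, both above them. For Tgfbr2 they had 17.5% and 45.5%, the first below and the second above fibroblast-like cells.

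Ltbp1 (chromosome 17, 75312519 to 75699507, plus strand), a latent binding protein that anchors the complex to the matrix, was highest in smooth muscle cell-like cells, at 391, 458, 414 and 557 CPM in control and 447, 395, 561 and 480.3 CPM in ancrod mice. Homeostatic astrocyte-like cells, the second class, ranged from 88.4 to 113 CPM. The ranges lay far apart, and the difference was 2.20 ± 0.15 on the log2 scale (8 of 8 mice, adjusted exact p of 0.0112). Astrocytes and oligodendrocyte precursors came next. Oligodendrocyte precursor-like cells had 65.3 ± 23.2 CPM (n = 7) and reactive astrocyte-like cells 60.0 ± 11.7 CPM, which stood above fibroblast-like cells at 40.2 ± 9.39 CPM by 0.57 ± 0.36 in 8 of 8 mice. Pericyte-like cells had 31.2 ± 5.79 CPM, and endothelial cell-like cells, which lie against them in the vessel, 1.71 ± 0.538 CPM. That step was 3.58 ± 0.32 on the log2 scale. No immune class had a mean above 1.38 CPM.

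Ltbp2 (chromosome 12, 84829986 to 84923306, minus strand) does not bind latent TGF-beta itself, but belongs to the same family of matrix proteins. It was a transcript of fibroblast-like cells, which held 1856 of its 1949 UMIs. They had 21.3, 16.4, 18.9 and 17.1 CPM in control and 18.6, 27.5, 10.9 and 26.5 CPM in ancrod mice, against a mean of at most 0.661 CPM in each other tested class. The difference from the second class, smooth muscle cell-like cells with 2 UMIs in all, was 3.85 ± 0.96 on the log2(CPM + 1) scale with the zeros taken as they stand (8 of 8 mice, adjusted exact p of 0.0112). In 6 of these mice the smooth muscle cell-like cells had no UMI of Ltbp2, where a count of 0 (3 UMIs) allows 5.23 to 13.7 CPM, so the size of the difference is not fixed at this depth.

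Ltbp3 (chromosome 19, 5790932 to 5808669, plus strand), which also binds latent TGF-beta, was highest in fibroblast-like cells as well, at 123, 88.8, 139 and 101 CPM in control and 92.6, 99.4, 93.2 and 79.4 CPM in ancrod mice. Reactive and homeostatic astrocyte-like cells followed at 49.3 ± 7.67 and 45.1 ± 8.52 CPM and did not differ from each other. Every mouse had more Ltbp3 in fibroblast-like than in reactive astrocyte-like cells, by 1.03 ± 0.34 on the log2 scale (adjusted exact p of 0.0112). Inflammatory macrophage-like cells, at 8.63 ± 1.88 CPM, were the highest immune class and stood above border-associated macrophage-like cells at 4.01 ± 1.62 CPM by 1.01 ± 0.53 in 8 of 8 mice.

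Ltbp4 (chromosome 7, 27004086 to 27037117, minus strand), which is known for elastic fibre assembly beside its binding of latent TGF-beta, was an endothelial transcript. Endothelial cell-like cells had 360.2, 274, 312 and 317 CPM in control and 249, 276, 313 and 315 CPM in ancrod mice. Pericyte-like cells, next in order, had 60.8, 60.6, 49.3 and 62.8 CPM in control and 92.5, 65.4, 59.7 and 56.8 CPM in ancrod mice. The ranges did not meet, with a difference of 2.25 ± 0.38 on the log2 scale (8 of 8 mice, adjusted exact p of 0.0112). Fibroblast-like cells, the leading class for Ltbp2 and Ltbp3, had 22.2 ± 4.78 CPM of Ltbp4. A further 553 unnamed cells had endothelial markers as their best score but pericyte markers such as Rgs5 and Vtn among their leading genes. In these Ltbp4 was at 291 CPM, Tgfbr2 at 379.8 CPM and Tgfbr3 at 237 CPM. Their median was 26464 UMIs per cell, against 10197 in endothelial cell-like and 5526 in pericyte-like cells. Whether they were doublets that had not been removed was not tested.

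**Figure D3:**
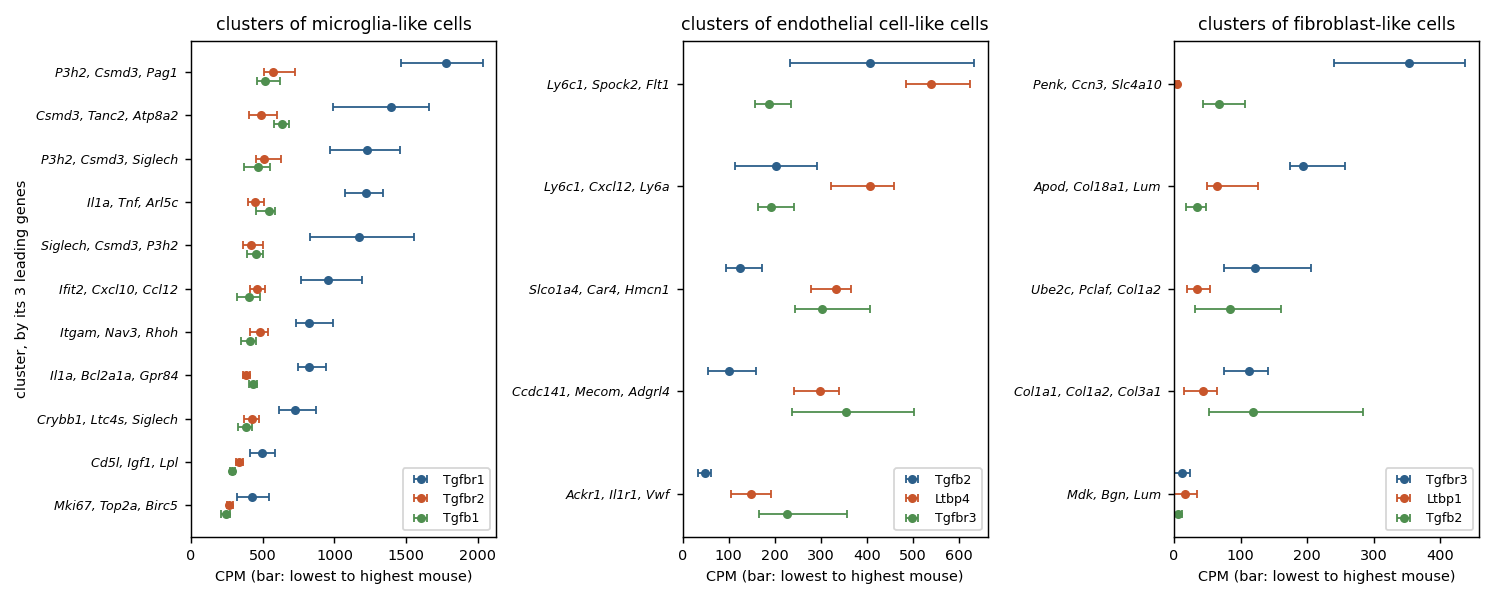
Mean CPM of selected genes over mice in each cluster of microglia-like, endothelial cell-like and fibroblast-like cells, with a bar from the lowest to the highest mouse and each cluster named by its 3 leading genes. Tgfbr1 runs from 1780 CPM in one microglia-like cluster down to 422 CPM in the cluster led by Mki67, and Tgfb2 and Ltbp4 are both highest in the endothelial cluster led by Ly6c1 and Spock2.

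The classes were not uniform. The 10 genes took no part in the clustering, yet clusters of one class differed in them, and these values are given as a description, without a test, since cells of one mouse share a library. Among microglia-like cells Tgfbr1 was at 1780 ± 162 CPM in a cluster led by P3h2, Csmd3 and Pag1, at 493 ± 67.1 CPM in one led by Cd5l, Igf1 and Lpl, genes of lipid-handling microglia, and at 422 ± 87.9 CPM in one led by the division genes Mki67 and Top2a (n = 8 mice each). Tgfb1 was lowest in the same clusters, with 286 ± 14.1 and 241 ± 21.2 CPM, and highest in a cluster led by Csmd3, Tanc2 and Atp8a2, with 632 ± 38.5 CPM. Median UMIs per cell moved with this order, at 11149 in the first of these clusters against 27453 and 34835 in the others, and their part in the result was not tested.

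Endothelial cell-like clusters differed as well. The cluster led by Ly6c1, Spock2 and Flt1 had 407 ± 142 CPM of Tgfb2 and 539 ± 40.3 CPM of Ltbp4. The cluster led by Ackr1, Il1r1 and Vwf, genes of venous endothelium, had 47.8 ± 11.2 and 148 ± 27.2 CPM of the same genes. No value of one cluster reached into the range of the other for either gene. Tgfbr3 had another order and was highest, at 356 ± 73.3 CPM, in the cluster led by Ccdc141 and Mecom. Median UMIs per cell were 10947, 32452 and 22837 in these 3 clusters.

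Fibroblast-like clusters separated the latent binding proteins. The cluster led by Penk, Ccn3 and Slc4a10 (336 cells, n = 6 mice) had 149.8 ± 24.8 CPM of Ltbp3, 58.3 ± 27.5 CPM of Ltbp4 and 354 ± 74.3 CPM of Tgfbr3. Its levels of Ltbp1 and Ltbp2 were 3.77 ± 2.21 and 2.15 ± 1.498 CPM. The cluster led by Apod, Col18a1 and Lum (844 cells, n = 7 mice) had more Ltbp1 and Ltbp2, at 64.5 ± 28.2 and 29.6 ± 9.67 CPM. Its level of Ltbp4 was lower, at 5.70 ± 2.22 CPM. The ranges of the mice did not meet for these 3 genes. Ltbp3 was also lower there without overlap, but remained at 90.8 ± 12.7 CPM. Tgfbr3 was at 193 ± 29.5 CPM, with ranges that overlapped. The cluster led by Col1a1, Col1a2 and Col3a1 (618 cells) had the highest mean of Tgfb2, 118.5 ± 75.7 CPM, with a range from 52.0 to 284 CPM over 7 mice that overlapped the ranges of the Penk and dividing clusters.

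Counted over all kept cells, few classes held most UMIs of each gene. Shares are means over mice, each mouse with the same weight. Microglia-like cells held 72.2% of the UMIs of Tgfb1 in control and 62.8% in ancrod mice, 84.9% and 76.7% of Tgfbr1, and 57.8% and 50.5% of Tgfbr2. Endothelial cell-like cells held 64.6% of Tgfb2 in control and 38.0% in ancrod mice. Fibroblast-like cells held 44.7% and 68.7% of Tgfb3, 48.1% and 63.2% of Ltbp3, and 82.3% and 95.8% of Ltbp2. For Tgfb3 the class with the highest level was thus not the one with the most UMIs. Smooth muscle cell-like cells were 286 of 44072 cells. For Tgfbr3 and Ltbp1 the leading class was another one in each group. Tgfbr3 had 70.5% in endothelial cell-like and 16.3% in fibroblast-like cells of control mice, against 41.2% and 44.2% in ancrod mice. Ltbp1 had 32.8% in homeostatic astrocyte-like, 22.6% in fibroblast-like and 19.2% in smooth muscle cell-like cells of control mice, against 26.7%, 38.8% and 10.9% in ancrod mice. These orders were not tested, and the single mice varied widely, from 4.96% to 36.0% in control and from 12.8% to 57.7% in ancrod mice for the fibroblast-like share of Ltbp1.

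**Figure D4:**
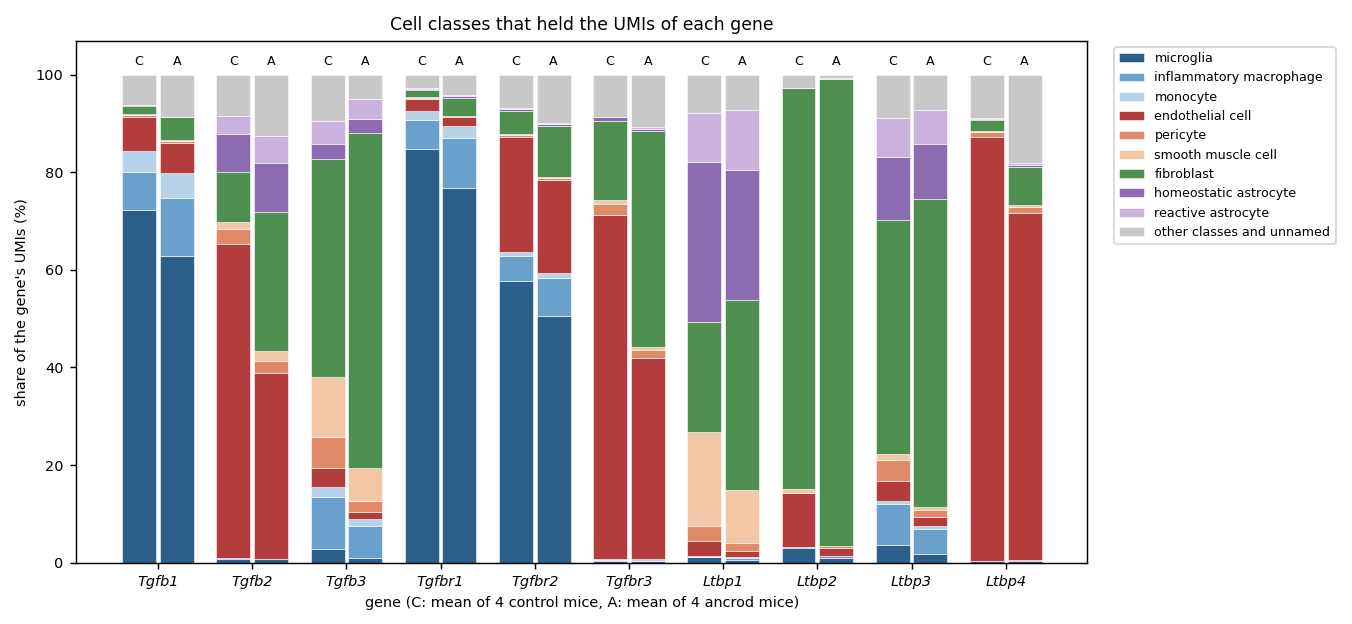
Share of the UMIs of each gene, in percent, that came from each cell class, as the mean over the 4 control mice (C) and the 4 ancrod mice (A). For Tgfb2, Tgfbr3 and Ltbp4 the endothelial cell-like part is smaller in ancrod mice, as with 86.9% against 71.1% for Ltbp4, and the fibroblast-like part is larger.

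These shares were compared between treatments beside the share of all UMIs that each class held. Both are shares of the cells recovered, not of the tissue. The methods report a trend to higher proportions of reactive fibroblasts and macrophages in ancrod mice. They name easier dissociation with less fibrosis as the likely reason, which was not tested here. In control mice microglia-like cells held 69.7% to 74.7% of the UMIs of Tgfb1 and in ancrod mice 60.4% to 65.0%, and for Tgfbr1 83.4% to 87.3% against 74.2% to 78.3%. The groups did not overlap for either gene. For 30.5% of all 16188 genes this share was likewise lower in each ancrod than in any control mouse. Microglia-like cells held 37.0% to 47.2% of all UMIs in control and 28.6% to 38.9% in ancrod mice. The endothelial share was below the control range in every ancrod mouse for Tgfb2 (52.0% to 76.2% against 28.5% to 48.0%), Tgfbr3 (63.6% to 80.0% against 29.3% to 58.3%) and Ltbp4 (84.9% to 88.5% against 67.2% to 76.0%), as it was for 38.2% of all genes. Of these 3 genes, Tgfb2 had a fibroblast-like share without overlap, at 5.02% to 14.0% in control and 14.7% to 39.3% in ancrod mice, beside 2.95% of all genes in that direction. Fibroblast-like cells held 0.869% to 10.9% of all UMIs in control and 5.50% to 23.1% in ancrod mice. Of the cells, endothelial cell-like ones made up 19.2% to 22.5% in control and 6.91% to 16.5% in ancrod mice, without overlap. The cell shares of microglia-like cells (40.9% to 44.6% against 27.8% to 43.1%) and of fibroblast-like cells (0.319% to 4.24% against 1.63% to 10.41%) overlapped.

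To compare ancrod with control mice within a class, the quasi-likelihood test of edgeR was run on the UMI sums of each mouse and class, and p-values were adjusted by Benjamini-Hochberg over all genes of the class. The mice are separate animals and served as the replicates. Of 88 fits of the 10 genes in the 14 classes none passed the adjusted threshold of 0.05 with edgeR or with DESeq2, and 6 of 88 had an unadjusted p below 0.05 in edgeR, as had 6.01% of all fits in these classes. Calls were rare among all genes. They made up 0.876% of the genes tested in pericyte-like cells, 0.0108% in monocyte-like, 0.00786% in fibroblast-like and 0.00759% in microglia-like cells, and 0.0% in the other 10 classes. The count for the 10 genes was near these shares in each class.

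**Figure D5:**
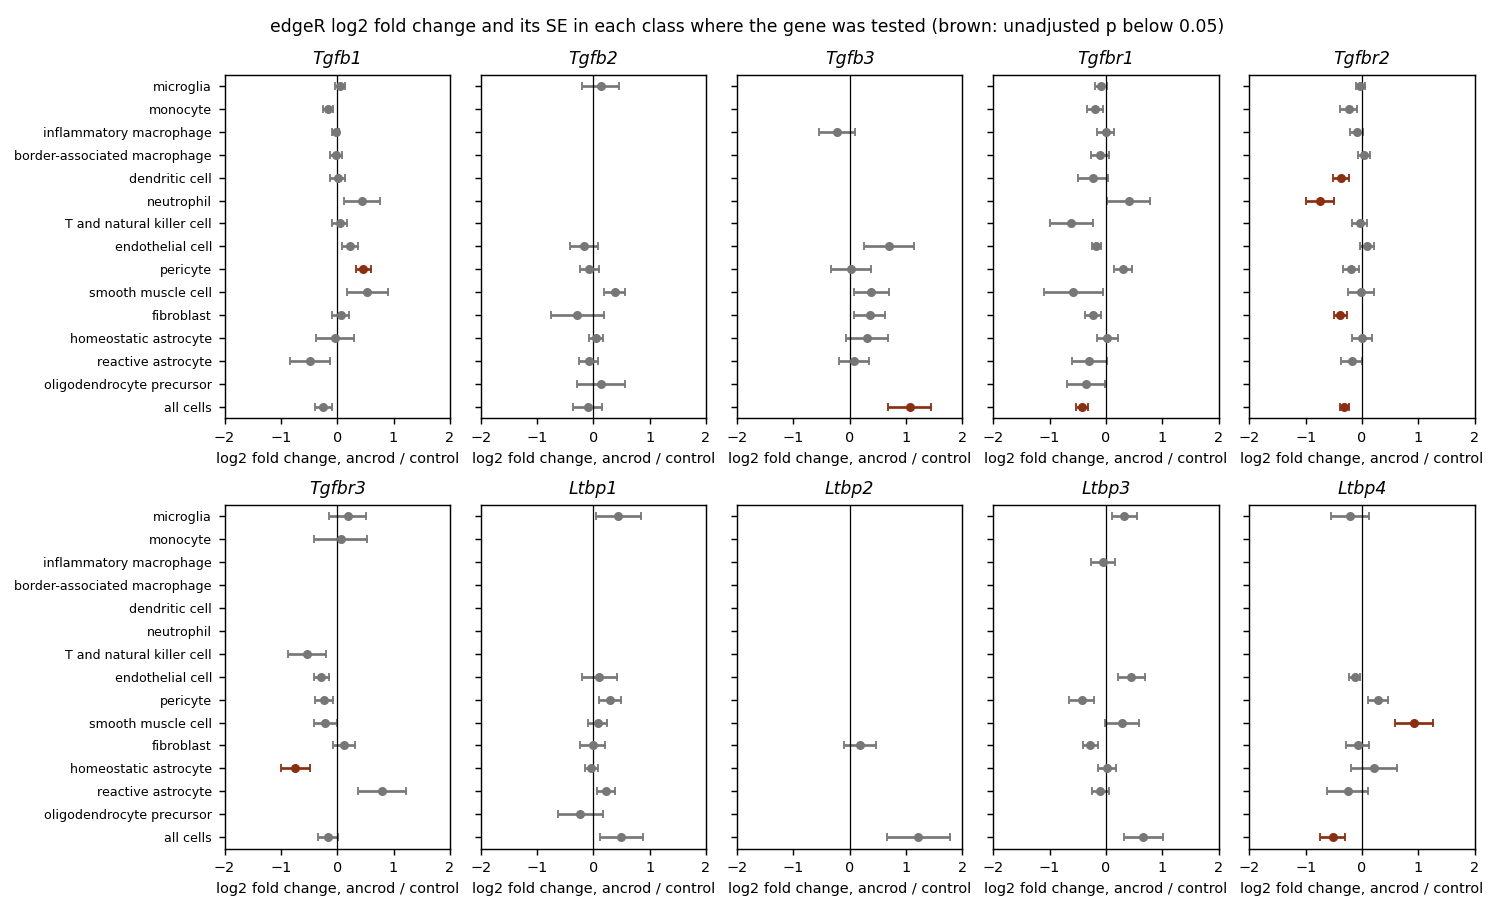
Log2 fold change, ancrod against control mice, with its standard error from edgeR, for each gene in each class in which it was tested. The value of Tgfb1 in pericyte-like cells is 0.47 ± 0.13, and no adjusted p reaches the threshold of 0.05.

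In their highest classes none of the 10 genes passed the test between the treatments. The log2 fold change in microglia-like cells was 0.05 ± 0.09 (SE) for Tgfb1, -0.09 ± 0.11 for Tgfbr1 and -0.03 ± 0.08 for Tgfbr2, with adjusted p values in edgeR of 0.962, 0.939 and 0.974. With cells pooled over mice, the cluster led by P3h2, Csmd3 and Pag1 held 9.98% of microglia-like cells in control and 3.75% in ancrod mice. The one led by Crybb1, Ltc4s and Siglech held 10.0% and 14.4%. Tgfbr1 was at 1780 and 724 CPM in these clusters, and their part in the result was not tested. In smooth muscle cell-like cells the log2 fold change was 0.38 ± 0.19 for Tgfb2, 0.38 ± 0.31 for Tgfb3 and 0.08 ± 0.17 for Ltbp1, with errors that leave room for sizeable differences. In endothelial cell-like cells it was -0.28 ± 0.14 for Tgfbr3 (adjusted p of 0.594 in edgeR) and -0.13 ± 0.10 for Ltbp4. In fibroblast-like cells Ltbp2 had 0.19 ± 0.28 and Ltbp3 -0.28 ± 0.13, where control mouse 3 entered with 19 cells. The control and ancrod values overlapped for each of the 10. Whether the effect of ancrod differed between the highest and the second class of a gene was tested by exact permutation of the treatment labels (70 arrangements, with 0.0286 as the smallest p they can give). The smallest unadjusted exact p was 0.171. A single gene at the smallest possible p would have an adjusted p of 0.286 over the 10 genes, and 6 would have to reach it together to pass, so this design could hardly detect such a difference.

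There were 6 differences that had an unadjusted p below 0.05 and failed the adjustment. Tgfb1 in pericyte-like cells was at 80.5, 90.4, 77.4 and 79.1 CPM in control and 123, 113, 97.3 and 101 CPM in ancrod mice. All ancrod mice lay above all control mice. The groups did not overlap, with both directions counted, for 7.05% of the genes tested in that class. The log2 fold change was 0.47 ± 0.13 (SE) with an adjusted p of 0.12 in edgeR, and the values within batch 1 and batch 2 were 0.47 and 0.35. Tgfbr2 in dendritic cell-like cells was at 127, 114, 95.3 and 119 CPM in control and 73.5, 93.1, 94.5 and 92.9 CPM in ancrod mice. There too the groups did not overlap, as for 3.66% of the genes, and the log2 fold change of -0.37 ± 0.14 had an adjusted p of 0.739 in edgeR.

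Tgfbr2 was also among these 6 in fibroblast-like cells, where the values were 239.9, 171, 229 and 240.2 CPM in control and 168, 166, 184 and 149.9 CPM in ancrod mice. The groups overlapped through control mouse 2 and ancrod mouse 3, and the log2 fold change was -0.38 ± 0.12 with an adjusted p of 0.398 in edgeR. Cells of the Apod cluster, with 240.4 CPM of Tgfbr2, made up 49.2% of the pooled fibroblast-like cells of control and 35.2% of those of ancrod mice. For the dividing cluster led by Ube2c, with 138 CPM, the shares were 7.47% and 13.7%. Control mouse 3 gave 19 of these fibroblast-like cells, and ancrod mice 3 and 4 gave 611 and 501. The part of the clusters in the result was not tested. The other 3 were Tgfbr2 in neutrophil-like cells (-0.74 ± 0.25), Tgfbr3 in homeostatic astrocyte-like cells (-0.74 ± 0.25) and Ltbp4 in smooth muscle cell-like cells (0.92 ± 0.34), with adjusted p values from 0.902 to 1.00 in edgeR and overlapping groups. Of the neutrophil-like values of Tgfbr2, that of control mouse 1, the highest at 230.1 CPM, came from 9 UMIs in 10 cells. In neutrophil-like cells the log2 difference of Tgfbr2 was -0.88 within batch 1 and 0.07 within batch 2.

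Over all cells together both signalling receptors had lower values in each ancrod mouse than in any control mouse. Tgfbr1 was at 479.7, 519.6, 484 and 429 CPM in control and 381, 413, 354 and 319 CPM in ancrod mice, and Tgfbr2 at 322, 289, 324 and 341 CPM in control and 269, 274, 262 and 248 CPM in ancrod mice. The groups did not overlap for 9.04% of all genes, in either direction. The log2 fold change was -0.42 ± 0.11 for Tgfbr1 and -0.31 ± 0.08 for Tgfbr2, with adjusted p values of 0.177 and 0.167 in edgeR, which called 0.0% of all genes there, and of 0.0219 and 0.00623 in DESeq2, which called 5.64% of all genes. Batch 1 and batch 2 gave -0.41 and -0.43 for Tgfbr1 and -0.25 and -0.46 for Tgfbr2. Within microglia-like cells, which held most UMIs of both, the groups overlapped and the fold changes were near 0. Over all cells, edgeR had 17.8% of all genes at an unadjusted p below 0.05. Of the other 8 genes, Tgfb3 (1.07 ± 0.38) and Ltbp4 (-0.52 ± 0.23) had an unadjusted p below 0.05, with adjusted p values of 0.229 and 0.281 in edgeR, and within batch 2 the log2 difference of Ltbp4 was 0.20.

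A list of 57 other genes of the pathway was counted in the same fits. It was chosen with earlier results of these data known, and its targets were not left out of the clustering. Its counts and the shares of all genes beside them are therefore a description. Over the 14 classes and all cells 4 calls were made by edgeR, all in pericyte-like cells, all higher in ancrod mice and all among the 22 targets of the list. In pericyte-like cells 4 of 44 tested genes of the list were called, beside 0.777% of all genes of the class called in that direction. A further 11 had an unadjusted p below 0.05, each higher in ancrod mice, and none was lower. Of all genes of the class, 6.94% were higher at that p. The median log2 fold change was 0.23 over the 44 genes and 0.55 over the 20 tested targets, against a median near 0 over all genes. Pericytes are the mural cells of capillaries.

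Fn1, which encodes the matrix protein fibronectin, was at 136, 152, 123 and 106 CPM in control and 356, 304, 257 and 178 CPM in ancrod mice. The groups did not overlap, and the log2 fold change was 1.15 ± 0.18 (SE, adjusted p of 0.0132 in edgeR). Id3, which encodes an inhibitor of helix-loop-helix factors that also responds to bone morphogenetic proteins, was at 186, 149, 296 and 206 CPM in control and 388, 353, 352 and 339 CPM in ancrod mice, with a log2 fold change of 0.84 ± 0.16 (adjusted p of 0.0258 in edgeR). Again each ancrod mouse was above each control mouse. Col1a2, which encodes a chain of collagen I, was at 306, 295, 283 and 254 CPM in control and 456, 400.4, 486 and 352 CPM in ancrod mice, with a log2 fold change of 0.63 ± 0.12 (adjusted p of 0.0324 in edgeR). Junb, an early response gene of the AP-1 family that other stimuli, tissue dissociation among them, also induce, was at 442, 555, 683 and 339 CPM in control and 1549, 816, 716 and 1073 CPM in ancrod mice. It had a log2 fold change of 1.10 ± 0.23 with an adjusted p of 0.0393 in edgeR and 0.081 in DESeq2.

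The count of 4 rested on single mice. It was 0 without control mouse 1, 1 (Fn1) without control mouse 2, control mouse 4 or ancrod mouse 1, and 7 without ancrod mouse 2, of which 6 were in pericyte-like and 1 in smooth muscle cell-like cells. The summed level of the 7 fibroblast markers in pericyte-like cells was 327 to 469 CPM in control and 424 to 628 CPM in ancrod mice, with 6 of 7 higher in the mean of ancrod mice. That of the 7 neutrophil markers was 8.94 to 35.3 CPM against 6.14 to 312 CPM. Pericyte markers summed to 29040 to 32980 CPM and 29470 to 30070 CPM. The part of these cells in the result was not tested.

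In the other classes no gene of the list was called by edgeR, and the counts at an unadjusted p below 0.05 were mixed. The marker lists of all classes were also summed in each class. Those given below were picked because their sums did not overlap between control and ancrod mice. Under random labels, 4 against 4 mice separate in this way with a probability of 0.0286 for each list. Every list was summed in each of the 14 classes, so some lists would separate under random labels. The share of all lists that did so is not given here. In fibroblast-like cells 7 of 56 tested genes were higher and 5 lower, with a median log2 fold change of 0.01, where 5.49% of all genes were higher and 5.27% lower. In them 5 summed marker lists did not overlap between control and ancrod mice, namely those of microglia (409 to 486 CPM against 362 to 402 CPM), monocytes (54.5 to 152 against 29.1 to 50.2), choroid plexus cells (10.36 to 26.7 against 5.04 to 10.2), neurons (5.48 to 12.6 against 14.97 to 24.0) and ependymal cells (1.11 to 3.36 against 4.99 to 16.1). Their part in these counts was not tested. In endothelial cell-like cells 13 of 53 were higher and 4 lower, beside 5.17% and 2.90% of all genes, with a median of 0.10 over the list and 0.55 over the 21 tested targets. Other markers moved with these values. In endothelial cell-like cells the summed level of the 7 fibroblast markers, of which 1 was at 0 in every mouse and 5 were higher in the mean of ancrod mice, was 7.88 to 9.22 CPM in control and 11.2 to 28.8 CPM in ancrod mice. That of the 6 smooth muscle cell markers, 5 of them higher, was 5.22 to 6.67 CPM against 7.76 to 14.8 CPM. The 7 oligodendrocyte precursor markers summed to 4.49 to 4.87 CPM against 5.18 to 9.36 CPM, and the 9 microglia markers went the other way, with 209 to 232 CPM against 166 to 193 CPM. With cells pooled over the mice of a group, the Ackr1 cluster made up 14.2% of the class in control and 23.1% in ancrod mice. The part of these in the result was not tested. Microglia-like cells had 8 of 52 higher and none lower, where 2.42% of all genes were higher. The 8 neuron markers in them, 7 higher, summed to 3.31 to 5.60 CPM in control and 5.63 to 14.5 CPM in ancrod mice. The part of these markers and of the cluster shares of this class given above was not tested. Inflammatory macrophage-like cells had 7 of 44 higher and none lower, beside 1.97% of all genes, and the summed level of the 8 reactive astrocyte markers in them, all 8 higher, was 13.4 to 22.6 CPM in control and 27.5 to 127 CPM in ancrod mice. Reactive astrocyte-like cells had 6 of 46 higher and none lower, beside 3.93% of all genes, with a median of 0.33 over the 18 tested targets. In them the 7 border-associated macrophage markers (2.18 to 4.66 CPM against 4.87 to 11.1 CPM), the 6 ependymal cell markers (23.3 to 34.9 CPM against 38.8 to 41.4 CPM) and the 4 erythrocyte markers (0.0 to 0.439 CPM against 1.17 to 60.7 CPM) had sums without overlap between control and ancrod mice. Their part in these counts was not tested. Some classes had lower genes alone, with 3 of 39 in monocyte-like, 2 of 31 in dendritic cell-like and 2 of 27 in T and natural killer cell-like cells, beside 5.79%, 6.38% and 3.79% of all genes in either direction. The 7 border-associated macrophage markers in monocyte-like cells, 5 of them higher, summed to 313 to 511 CPM in control and 569 to 737 CPM in ancrod mice, and the 8 reactive astrocyte markers in T and natural killer cell-like cells, 7 of them higher, to 20.02 to 47.5 CPM against 87.1 to 116 CPM. Their part in these counts was not tested. Among the remaining classes, border-associated macrophage-like cells had 5 of 36 higher and 1 lower (5.78% of all genes in either direction), homeostatic astrocyte-like cells 4 of 39 and 1 (4.73%), neutrophil-like cells 1 of 23 and 1 (4.21%, with 8 neuron markers, 6 of them higher, at 0.0 to 7.78 CPM against 8.72 to 39.7 CPM), smooth muscle cell-like cells 3 of 40 and none (3.55%), and oligodendrocyte precursor-like cells none of 27 (2.33%). Over all cells 7 of 57 were higher and 13 lower, the latter including 4 of the 8 inhibitors, beside 7.80% and 9.97% of all genes. Over all cells DESeq2 called 7 genes of the list, among them Eng, Acvrl1 and Smad7, beside 5.64% of all genes. It also called Mmp14, a membrane protease, in endothelial cell-like cells and Col3a1 in reactive astrocyte-like cells. The share of all genes it called in those classes, and the directions of these calls, are not given here. With cells pooled over mice, most reactive astrocyte-like cells of control mice (57.4%) lay in a cluster led by Myoc, Fabp7 and Gfap. Most of those of ancrod mice (53.9%) lay in one whose leading genes include the division genes Ckap2 and Prc1.

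The genes whose levels over 16 named classes were most like those of each of the 10 were found among the other genes with at least 20 CPM in 1 class, 12512 in number and 12513 for Ltbp2. The classes share libraries and differ in depth, so the correlations are a description. Tgfb1 was most like Cgas, Ctsc and Gsdmd (Pearson r of 0.95, 0.938 and 0.934), genes of innate immune sensing and lysosomal proteolysis. Tgfb2 was most like Timp3, Tcf7l1 and Adamts9 (0.99, 0.987 and 0.984), and Tgfb3 like Alx1 and Hspb2 (0.9 and 0.899). Tgfbr1 was most like Adam17, Rab20 and Nfya, each at 0.93, and Tgfbr2 like Tmem140, Lgals9 and Sqstm1 (0.935, 0.917 and 0.914). Tgfbr3 was most like Grb10 (0.938) and the basement membrane collagens Col4a2 and Col4a1 (0.905 and 0.901). Among the latent binding proteins, Ltbp1 was most like Dmpk, Smarcd3 and Prrx1 (0.947, 0.944 and 0.935), Ltbp2 like Inmt, Krt19 and Reg3g (0.988, 0.983 and 0.98), Ltbp3 like Slc7a2, Adra2a and Fzd2 (0.954, 0.923 and 0.922), and Ltbp4 like Jcad, Mapk12 and Cd200 (0.961, 0.944 and 0.938).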

How the data were processed

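For every droplet the authors deposited the UMI counts of each gene, made from exonic and intronic reads with Cell Ranger 7.1.0 and STAR on GRCm39, per the submitters' processing notes and the methods. Counts were whole numbers without normalization. Groups were taken from the sample labels. Droplets with at least 2000 UMIs and less than 20% mitochondrial UMIs were scored for doublets by a Scrublet procedure and clustered (3000 variable genes without the 10 genes and the other pathway genes except the targets, 20 principal components, Leiden method at resolution 2 with leidenalg 0.10.2). Thresholds for naming clusters were chosen with the clusters in view. The genes, the pathway list, the markers and the tests were chosen with earlier results of these data known. Sums of UMIs per mouse were tested in each class that had 10 or more cells in at least 3 mice of each group, using edgeR 4.0.16 (filterByExpr, TMM, glmQLFTest), with DESeq2 1.42.0 as an alternative. Oligodendrocyte precursor-like cells of ancrod mouse 2 (8 cells) were left out. Scripts were tested on simulated data. By rule, the text names the 10 genes in every class, the pathway genes past the threshold, at most 10 per class, and the 3 genes most like each of the 10, of which 1 is not reported here. Other genes are named by their place in a cluster or list, and were chosen after their values were seen. Correlations of the deviations of same-numbered mice ran from -0.412 to 0.238. They were positive in 12 of 15 fits for number 4, the mice of batch 2, and in no fit above 0.1 for every number, so the numbers were not taken to pair mice. Free RNA was taken from droplets with at most 100 UMIs. Its share was estimated in microglia-like and endothelial cell-like cells and applied to every class.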

Additional observations from a re-analysis of the deposited data

Results flagged for a closer look

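In 5 of 40 groups of 4 mice, for the 10 genes in their highest and second classes, 1 mouse stood apart by Dixon's test. Chance gives about 1 in 20 for continuous values, which does not hold for the groups of Ltbp2 below. Tgfbr3 in endothelial cell-like cells was at 183 CPM in ancrod mouse 1 and at 232 to 236 CPM in the other ancrod mice. Ltbp3 in reactive astrocyte-like cells was at 39.1 CPM in ancrod mouse 4 and at 50.9 to 52.9 CPM in the others, and Ltbp4 in pericyte-like cells was at 49.3 CPM in control mouse 3 and at 60.6 to 62.8 CPM in the others. Ltbp2 in smooth muscle cell-like cells was at 2.48 CPM in control mouse 3 and at 2.81 CPM in ancrod mouse 1. Each of these values is 1 UMI, and the other 6 mice had none, where a count of 0 (3 UMIs) allows 5.23 to 13.7 CPM. A single UMI beside zeros is flagged by this test in any case.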

How the results depend on the processing

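The number of the 10 genes called between treatments was 0 under every alternative run except DESeq2, which called 2, Tgfbr1 and Tgfbr2 over all cells. The count of 4 for the pathway list was 13 with DESeq2, 10 without the filter on low counts, 2 without doublet removal and 0 to 7 without 1 mouse. With the replicate number as a block it was 7, and with the bias-adjusted quasi-dispersion of edgeR, an alternative chosen after seeing the data, 5. Of all genes, 80 were called in pericyte-like cells, and 138 with the block, 124 with batch as a term, 202 without the filter on low counts, 140 with DESeq2, 46 with the droplet filter of the methods, 40 at resolution 1, 6 without doublet removal and 0 to 91 without 1 mouse. DESeq2 called 28 genes in endothelial cell-like, 33 in fibroblast-like, 15 in monocyte-like and 2 in microglia-like cells, against 0, 1, 1 and 1 with edgeR. The call in microglia-like cells was lost with the block, which left the count for the 10 genes at 0. The number of genes whose highest class stood above the second was 7 to 9 (8 in the main test). The permutation test of a treatment effect that differs between classes could hardly pass its threshold under any alternative, so its counts show nothing of stability. The log2 difference of Tgfbr2 between microglia-like and endothelial cell-like cells was -0.00819 with the droplet filter of the methods, -0.0496 in ancrod mice alone and -0.00806 to 0.0550 without 1 mouse. That of Tgfbr3 between its highest classes kept its direction at 0.41 with that filter but lost the call (adjusted exact p of 0.0586), and that of Tgfb2 was called at resolution 1 (0.44, adjusted exact p of 0.0434). None of the log2 fold changes in the highest class was called, and within batch 1 the sign turned for Tgfb1 (-0.0249), Tgfbr2 (0.026) and Ltbp2 (-0.0693). Without 1 mouse the range was -0.0176 to 0.0907 for Tgfb1, -0.0699 to 0.00840 for Tgfbr2, -0.0225 to 0.198 for Ltbp1 and -0.0186 to 0.417 for Ltbp2. With 1 direction throughout it was 0.252 to 0.497 for Tgfb2, 0.160 to 0.579 for Tgfb3 (lowest without ancrod mouse 1), -0.171 to -0.0356 for Tgfbr1, -0.365 to -0.130 for Tgfbr3 (nearest to 0 without control mouse 4), -0.386 to -0.182 for Ltbp3 and -0.181 to -0.0743 for Ltbp4. The causes were not tested. Levels of a few CPM are limited by depth, as for Ltbp2 outside fibroblast-like cells, and by free RNA.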
